A study of Mus musculus with 15 samples.

Results

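The carboxylesterases are serine hydrolases that split carboxylic esters, amides and thioesters. In mice they are encoded by gene clusters, and the Ces2 class is best known from the gut, where it acts on ester drugs and acylglycerols of the diet. The Ces1 class is best known from the liver, adipose tissue and plasma. The levels of 10 of these genes are described here in colon tissue: Ces1d, Ces1e, Ces1f and Ces1g of the Ces1 class, Ces2a, Ces2b, Ces2c, Ces2e and Ces2g of the Ces2 class, and Ces3a of the Ces3 class. They are 10 of 55335 genes in the deposited files. The list was chosen by family name with measured values in view, since Ces1e was already known to have passed the test between mice with and without the bacterial gavage. The values of that comparison, and of those that share its mice, are therefore given as a description and are not independent support for one another.

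RNA was sequenced from the colon of 15 mice in 3 groups of 5, and every mouse had been given DSS (dextran sulfate sodium, which damages the mucosa of the large bowel when swallowed). The group called DSS had no further treatment on their label, so each group carries the DSS injury and there is no uninjured group here. DSS_ICB mice also had immune checkpoint blockade (ICB), that is, antibodies against receptors that restrain T cells. DSS_ICB_Fp mice had DSS, ICB and, by gavage into the stomach, Faecalibacterium prausnitzii, a commensal that ferments fibre to butyrate. Nothing in the labels gives the strain, age or sex of the mice, the antibodies used, a control antibody, a control gavage, cages or batches. ICB mice with a gavage of vehicle are not among the groups. A level below is in FPKM (fragments scaled to transcript length and to library size), which is per length and so can be compared between genes. A change is a difference of group means of log2(FPKM + 1), given with its standard error (SE) from limma, and passing means a p under 0.05 after Benjamini-Hochberg adjustment over 14385 tested genes.

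The libraries held between 13243 and 14336 genes at 1 FPKM or more. DSS_ICB 3 stood apart. Mitochondrially encoded genes made up 33.2% of its summed FPKM, against 9.39% to 25.8% in the other libraries. The geometric mean of the 12 pan-epithelial markers in DSS_ICB 3 was 48.7 FPKM, against 269.57 to 408.14 in the other libraries. The 8 smooth muscle markers of DSS_ICB 3 summed to 14880 FPKM, against 1083 to 4738. Spearman's rho with the other 14 libraries, across genes, had a median of 0.725 for it and 0.864 for DSS_ICB 5, the next lowest. All 12 pan-epithelial and 11 of 12 absorptive colonocyte markers reached 1 FPKM in at least 5 libraries, and the other, Slc9a3, was above 0 in all 15. In pieces of whole tissue, fewer cells of a type and less RNA per cell cannot be told apart.

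The colon expressed mainly Ces2 genes. Ces2c was the highest member in each group by mean, at 39.2 ± 10.4 FPKM (SD, n = 5) in DSS mice, and made up 46.1% ± 2.73 of the members' summed FPKM there. Ces2e followed at 16.1 ± 3.70, then Ces2a at 11.01 ± 4.48, Ces2g at 7.31 ± 1.29 and Ces1d at 5.67 ± 1.37 FPKM in the same mice. Ces1g, Ces1f, Ces1e and Ces2b lay between 1.12 and 1.49 FPKM by mean. In DSS mice the libraries of Ces2c did not overlap those of Ces2e, and those of Ces1d did not overlap those of Ces1g, whereas all other neighbours in this order overlapped down to Ces2b. In DSS_ICB mice every pair of neighbours overlapped, with DSS_ICB 3 among the libraries. Without DSS_ICB 3, Ces2e (10.64 to 19.91 FPKM) did not overlap Ces2g (6.374 to 9.475). Nor did Ces1e (0.1059 FPKM or more) overlap Ces3a (0.04386 or less) there. In DSS_ICB_Fp mice the gaps lay between Ces2g and Ces1f and between Ces2b and Ces3a, and Ces1d stood ahead of Ces2g by mean. Ces3a was listed at 0 in 13 of 15 libraries, with 0.0439 FPKM in DSS_ICB 2 and 0.0882 FPKM in DSS_ICB_Fp 1. It did not pass the filter of at least 1 FPKM in at least 5 libraries, which the other 9 members passed.

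**Figure D1:**
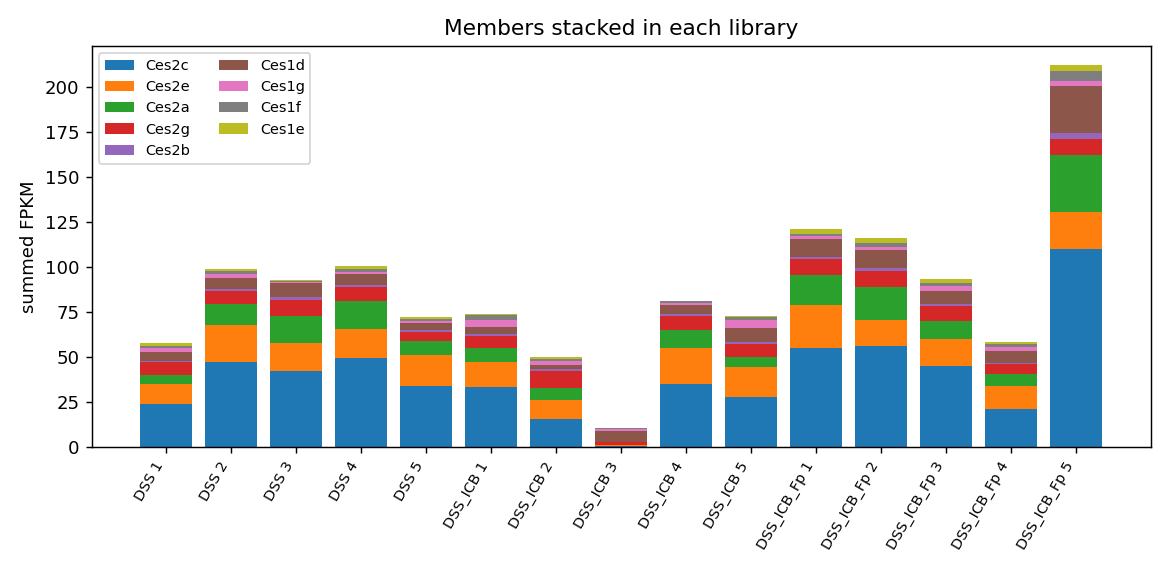
FPKM of 9 members stacked in each of the 15 libraries (vertical axis, summed FPKM; Ces3a is too low to draw). DSS_ICB 3 has the shortest column, 10.6 FPKM, and DSS_ICB_Fp 5 the tallest, 212.1 FPKM, with Ces2c the widest band in all libraries except DSS_ICB 3.

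Summed over the 10 members, the family had a mean of 84.3 ± 18.8 FPKM in the DSS group, 57.6 ± 28.8 under ICB and 120.2 ± 57.1 with the gavage (SD, n = 5). By library the sums were 57.5, 99.0, 92.8, 100.4 and 71.9 FPKM in DSS mice, then 74.0, 49.8, 10.6, 81.2 and 72.4 in DSS_ICB, and 121.3, 115.8, 93.3, 58.3 and 212.1 in DSS_ICB_Fp. The 3 groups overlapped, and the lowest sum came from DSS_ICB 3. Without that library the DSS_ICB mean was 69.4 ± 13.6 FPKM (SD, n = 4). The Ces1 members gave 74.5% of the sum in DSS_ICB 3 and between 9.17% and 19.8% of it in each other library. That library kept 6.29 FPKM of Ces1d while its Ces2 members summed to 2.70 FPKM, against 43.1 to 174.4 FPKM elsewhere.

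The members lie in 2 clusters on mouse chromosome 8 (GRCm38, GENCODE M21). The Ces1 members run from 93166068 to 93337308 on the minus strand, Ces1d (ENSMUSG00000056973) first, then Ces1e (ENSMUSG00000061959), Ces1f (ENSMUSG00000031725) and Ces1g (ENSMUSG00000057074). The Ces2 members and Ces3a (ENSMUSG00000069922) run from 104734003 to 105058413 on the plus strand, in the order Ces2a (ENSMUSG00000055730), Ces2b (ENSMUSG00000050097), Ces2c (ENSMUSG00000061825), Ces2e (ENSMUSG00000031886), Ces2g (ENSMUSG00000031877) and Ces3a. Coding sequences were 74.0% to 81.5% identical within the Ces1 members and 81.3% to 91.3% identical within the Ces2 members. Between classes, Ces3a included, identity ran from 53.1% to 57.8%. The closest pair was Ces2b and Ces2c at 91.3%.

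**Figure D2:**
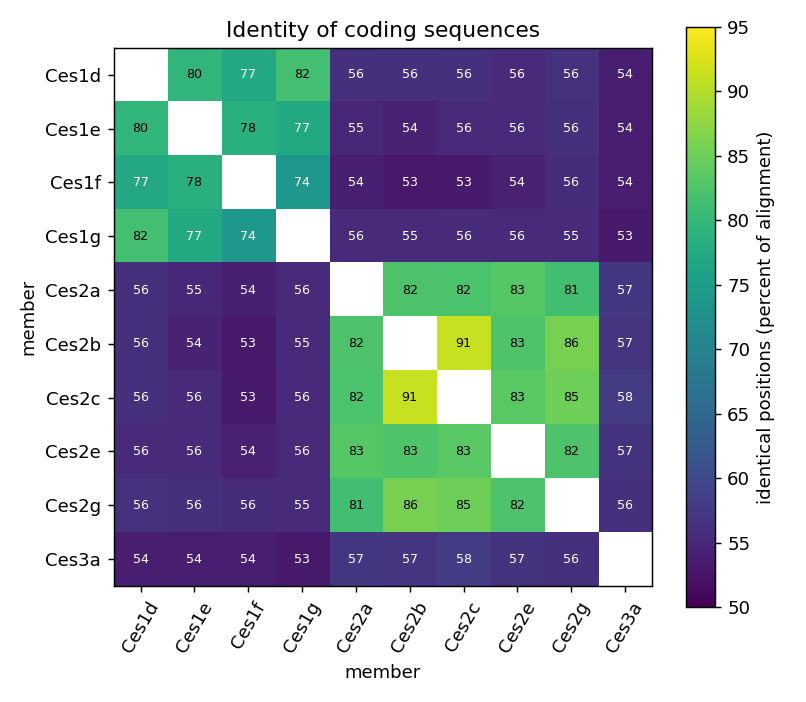
Percent of identical positions in global alignments of the coding sequences of the 10 members (colour scale from 50 to 95 percent). The 4 Ces1 genes and the 5 Ces2 genes form separate blocks, and the brightest cell is Ces2b with Ces2c at 91.3%.

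Such likeness bears on the values, since reads from a stretch that 2 genes share can be counted for either. Of the 50-base stretches of the Ces2c transcript, 42.2% also occurred in another gene's transcripts, and 38.2% of all its stretches occurred in the neighbouring pseudogene Ces2d-ps. For Ces3a the share was 30.9%, all of it with Ces3b, and for Ces2a it was 22.2%, with 20.9% of all its stretches in Gm7208, a transcribed pseudogene upstream of it on the other strand. For Ces2b it was 9.56%. In the other 6 members it lay between 1.28% and 3.95%. Within the coding sequence of Ces2c, the longest run shared with Ces2d-ps is 181 bases (GENCODE M21, coding bases 1503 to 1683). It ends at the last coding base, and the transcript beyond that base was not searched. The run is shown here in lower case because no read that falls inside it can be placed by its letters alone.
Ces2c and Ces2d-ps: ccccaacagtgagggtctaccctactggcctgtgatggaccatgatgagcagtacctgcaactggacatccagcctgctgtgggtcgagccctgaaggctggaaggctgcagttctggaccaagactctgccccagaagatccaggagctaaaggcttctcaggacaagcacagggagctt
Ces2d-ps itself was listed at 0 to 3.73 FPKM and Gm7208 at no more than 0.542 FPKM. How the authors treated reads with several places of origin is not given in the sources used here, so the split between these genes is uncertain.

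Ces2c, a gut acylglycerol hydrolase, had its highest values in mice with the gavage and its lowest in DSS_ICB mice. Its FPKM was 24.0, 47.1, 42.3, 49.1 and 33.5 in DSS mice. In DSS_ICB mice it was 33.3, 15.3, 0.571, 35.03 and 27.9, and in DSS_ICB_Fp mice 54.99, 56.2, 45.1, 20.9 and 109.8. The groups overlapped, with DSS_ICB 3 far below and DSS_ICB_Fp 5 far above the rest. Ces2c differed by 1.72 ± 0.70 (log2, SE) between DSS_ICB_Fp and DSS_ICB (adjusted p = 0.177, limma), a ratio of means of 2.56. Between DSS_ICB and DSS it differed by -1.32 ± 0.70 (adjusted p = 0.462). Without DSS_ICB 3 these differences were 0.90 ± 0.38 and -0.50 ± 0.38, and the DSS_ICB mean was 27.9 ± 8.95 FPKM (SD, n = 4) in place of 22.4 ± 14.5.

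Ces2a, which hydrolyses acylglycerols in the liver, tracked Ces2c from library to library. It stood at 5.38, 11.2, 15.2, 15.6 and 7.75 FPKM in DSS mice, at 7.99, 6.93, 0.179, 9.91 and 5.37 in DSS_ICB mice, and at 16.8, 18.1, 10.1, 6.55 and 31.8 in DSS_ICB_Fp mice. The same libraries were lowest and highest as for Ces2c, and the ratio of Ces2a to Ces2c kept group means of 0.274, 0.297 and 0.291. Over the 15 libraries Pearson's r of log2(FPKM + 1) between the pair was 0.959, and 0.903 over the 14 libraries without DSS_ICB 3. These points share their libraries and the epithelial content of the tissue, so r is a description. Ces2a differed by 1.47 ± 0.54 (log2, SE) between DSS_ICB_Fp and DSS_ICB (adjusted p = 0.15, limma) and by -0.99 ± 0.54 between DSS_ICB and DSS (adjusted p = 0.468). Without DSS_ICB 3 the first was 0.90 ± 0.37 and the second -0.43 ± 0.37.

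The promoters of this pair are shown because the genes varied together, from 250 bases before to 50 after the start site (RefSeq, GRCm38.p6, chr8:104733753-104734052 and chr8:104846818-104847117, plus strand). Aligned over their length they are 64.6% identical, the most of any pair among the 6 members with a promoter in the table. Capitals mark the 4 runs of 8 or more identical bases in 1 global alignment, and a run ends where the aligner placed a gap, so letters beside it can match too.
Ces2a: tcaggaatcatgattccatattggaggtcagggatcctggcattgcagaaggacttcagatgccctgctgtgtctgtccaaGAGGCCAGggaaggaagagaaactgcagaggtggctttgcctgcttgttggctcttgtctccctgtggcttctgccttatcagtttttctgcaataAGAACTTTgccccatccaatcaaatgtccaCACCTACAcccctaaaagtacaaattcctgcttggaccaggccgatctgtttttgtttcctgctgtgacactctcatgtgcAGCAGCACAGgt
Ces2c: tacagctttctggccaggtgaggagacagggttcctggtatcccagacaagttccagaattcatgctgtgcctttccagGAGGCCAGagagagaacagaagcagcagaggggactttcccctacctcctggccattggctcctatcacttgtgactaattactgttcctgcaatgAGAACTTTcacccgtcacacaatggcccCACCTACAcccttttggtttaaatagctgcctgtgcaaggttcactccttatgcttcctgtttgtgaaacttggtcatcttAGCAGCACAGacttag
Neither carries TATAAA, which 13.6% of 32851 promoters of the same length hold on either strand. Ces2a holds the nuclear receptor half-site AGGTCA once, at -226 from its start site, as do 16.3% of promoters. Ces2c holds none of the 6 motifs searched. A match is a description of the letters and not a site of binding.

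Ces2e, another Ces2 enzyme, differed less between groups. Its FPKM was 10.7, 20.9, 15.2, 16.3 and 17.4 in DSS mice, 13.9, 10.6, 0.410, 19.9 and 16.6 in DSS_ICB, and 23.8, 14.2, 14.9, 12.9 and 20.5 in DSS_ICB_Fp mice. Apart from DSS_ICB 3 the 3 groups covered much the same range, from 10.6 to 23.8 FPKM. The change from DSS_ICB to DSS_ICB_Fp was 0.86 ± 0.55 (log2, SE; adjusted p = 0.368, limma), and without DSS_ICB 3 it was 0.17 ± 0.22. Its ratio to Ces2c had group means of 0.419 in DSS, 0.599 in DSS_ICB and 0.364 in DSS_ICB_Fp mice. It was lowest in DSS_ICB_Fp 5, at 0.187, where Ces2c was at its highest and Ces2e was not.

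Ces2g was the steadiest member outside DSS_ICB 3. It ran from 5.21 to 8.67 FPKM in DSS mice, from 6.37 to 9.47 in the other 4 DSS_ICB mice, and from 5.86 to 8.84 in DSS_ICB_Fp mice. DSS_ICB 3 had 1.47 FPKM. The change from DSS_ICB to DSS_ICB_Fp was 0.40 ± 0.30 (log2, SE; adjusted p = 0.452, limma), with an interval of 2 SE from -0.20 to 1.01. Without DSS_ICB 3 it was 0.04 ± 0.15. Ces2b, the closest in sequence to Ces2c, was low throughout. It ran from 0.611 to 2.04 FPKM in DSS, from 0.0739 to 1.07 in DSS_ICB and from 0.574 to 3.49 in DSS_ICB_Fp mice. It reached 1 FPKM in 8 of 15 libraries, 4 of them in DSS_ICB_Fp mice and 1 in DSS_ICB mice. Its change from DSS_ICB to DSS_ICB_Fp was 0.55 ± 0.26 (adjusted p = 0.235). The low end of its DSS_ICB range was DSS_ICB 3. Without that library its DSS_ICB mean was 0.944 ± 0.0973 FPKM (SD, n = 4), from 0.8345 to 1.071, in place of 0.770 ± 0.398.

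Ces1e, also known as egasyn, which holds beta-glucuronidase in the endoplasmic reticulum of the liver, was the member that passed the test. Its FPKM was 1.33, 1.39, 0.721, 1.55 and 0.985 in DSS mice. In DSS_ICB mice it was 0.875, 0.927, 0, 0.300 and 0.106, and in DSS_ICB_Fp mice 2.74, 2.45, 2.26, 1.16 and 3.53. Each of the 5 DSS_ICB_Fp libraries lay above each of the 5 DSS_ICB libraries, whereas DSS mice overlapped both. The mean rose from 0.442 ± 0.434 to 2.43 ± 0.857 FPKM (SD, n = 5), a ratio of means of 5.5 and a change of 1.26 ± 0.22 (log2, SE; adjusted p = 0.034, limma). The filter bears on this gene. It reached 1 FPKM in 5 DSS_ICB_Fp, 3 DSS and 0 DSS_ICB libraries, so it was tested because of the groups in which it is higher.

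The call of Ces1e depended on the libraries and settings. Of 25 alternative fits that tested it, 9 kept it under the threshold, with adjusted p from 0.00918 to 0.216. It was lost without DSS_ICB 3 (adjusted p = 0.0704), DSS_ICB 5 (0.118), DSS_ICB_Fp 1 (0.134), 2 (0.102), 3 (0.111) or 5 (0.128), and without DSS 1 (0.0603), 2 (0.0593), 4 (0.0529) or 5 (0.0609). The change without DSS_ICB 3 was 1.14 ± 0.22 (log2, SE) and without DSS_ICB 3 and 5 together 0.99 ± 0.22 (adjusted p = 0.165). Scaled to the pan-epithelial markers it was 1.13 ± 0.27 (adjusted p = 0.142). From DSS to DSS_ICB, Ces1e differed by -0.64 ± 0.22 (adjusted p = 0.418), with an interval of 2 SE from -1.09 to -0.20.

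Ces1g, a lipid hydrolase of the liver, lies in the same cluster as Ces1e and did not follow it. It stood at 2.36, 1.95, 0.536, 1.45 and 1.16 FPKM in DSS mice, at 3.90, 2.09, 0.794, 1.45 and 4.59 in DSS_ICB, and at 1.78, 1.49, 2.69, 2.32 and 2.69 in DSS_ICB_Fp mice. Its 2 highest libraries, DSS_ICB 1 and DSS_ICB 5, belong to the group in which Ces1e was lowest. Ces1g differed by 0.44 ± 0.29 (log2, SE) between DSS_ICB and DSS (adjusted p = 0.532, limma) and by -0.05 ± 0.29 between DSS_ICB_Fp and DSS_ICB (adjusted p = 0.936). It was the one member below 0 in the second of these comparisons. The ratio of Ces1e to Ces1g, chosen after the values were seen and not tested, was 0.563 to 1.34 in DSS, 0 to 0.443 in DSS_ICB and 0.503 to 1.64 in DSS_ICB_Fp mice. Every DSS_ICB library was below every library of the other 2 groups in this ratio. Ces1e was already known to differ between DSS_ICB_Fp and DSS_ICB, and how often ratios of other genes separate the groups was not tested. Nothing is therefore read from this separation. Of the 50-base stretches of Ces1g, 1.07% also occurred in Ces1e, and the part of shared reads was not tested.

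The promoters of Ces1e and Ces1g are shown because these genes of 1 cluster differed in pattern (RefSeq, GRCm38.p6, chr8:93229570-93229869 and chr8:93337160-93337459, minus strand, 250 bases before to 50 after the start site). Capitals mark 3 motifs on either strand, which do not overlap: the TATA box TATAAA, the CDX element with letters TTTATG and the GATA element with letters AGATAA.
Ces1e: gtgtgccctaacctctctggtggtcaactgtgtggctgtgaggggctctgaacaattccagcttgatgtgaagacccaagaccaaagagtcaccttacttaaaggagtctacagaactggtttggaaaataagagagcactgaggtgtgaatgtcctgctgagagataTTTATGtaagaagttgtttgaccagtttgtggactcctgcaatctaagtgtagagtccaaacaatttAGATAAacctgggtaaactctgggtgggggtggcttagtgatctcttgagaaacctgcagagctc
Ces1g: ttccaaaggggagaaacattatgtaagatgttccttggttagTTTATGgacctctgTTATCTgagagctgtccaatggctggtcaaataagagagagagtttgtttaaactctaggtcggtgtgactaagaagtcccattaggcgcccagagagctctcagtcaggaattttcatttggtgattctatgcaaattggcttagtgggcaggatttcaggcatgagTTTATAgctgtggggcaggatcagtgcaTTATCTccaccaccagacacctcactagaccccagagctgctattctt
Ces1e holds TTTATG at -82 and AGATAA at -15. Ces1g holds TATAAA on the reverse strand at -26, TTTATG at -208, and AGATAA on the reverse strand at -194 and 3. Of all 32851 promoters, 11.9% hold the CDX letters and 11.2% the GATA letters. The HNF4 element CAAAGTCCA, in 0.475% of promoters, and the HNF1 half-site GTTAAT, in 7.1%, were found in none of the 6 member promoters. The pair was 44.0% identical over the aligned length. The matches neither name a factor at work nor account for the difference in pattern.

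Ces1d, a triacylglycerol hydrolase of liver and adipose tissue, was the most abundant Ces1 gene. Its FPKM was 4.89, 6.05, 7.55, 5.96 and 3.88 in DSS mice, 4.28, 2.42, 6.29, 4.94 and 7.66 in DSS_ICB, and 9.84, 10.3, 7.35, 6.48 and 26.1 in DSS_ICB_Fp mice. DSS_ICB_Fp 5 stood far above the other libraries, and the groups overlapped. From DSS_ICB to DSS_ICB_Fp it differed by 0.99 ± 0.32 (log2, SE; adjusted p = 0.119, limma), a ratio of means of 2.35. Without DSS_ICB_Fp 5 the change was 0.68 ± 0.25 (adjusted p = 0.202). With array quality weights, which give less weight to libraries that vary more, it was 1.16 ± 0.31 (adjusted p = 0.0416), in a fit that called 6.7% of all tested genes. In DSS_ICB 3, where the epithelial markers were lowest, Ces1d stayed inside the range of the other DSS_ICB libraries. Ces1f, also a hydrolase of triacylglycerol in the liver, ran from 0.544 to 1.71 FPKM in DSS, from 0.7501 to 2.49 in DSS_ICB and from 1.30 to 5.47 in DSS_ICB_Fp mice. DSS_ICB_Fp 5 was again the highest. The change from DSS_ICB to DSS_ICB_Fp was 0.47 ± 0.27 (adjusted p = 0.321).

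The adipocyte markers are given beside Ces1d, whose product is known from fat cells. The 10 adipocyte markers summed to 5.996 to 55.9 FPKM in DSS mice, 20.5 to 66.0 in DSS_ICB and 6.82 to 84.7 in DSS_ICB_Fp mice, and Adipoq ran from 0 to 9.75 FPKM over all libraries. DSS_ICB_Fp 5 and DSS_ICB_Fp 2 had the highest sums, 84.7 and 83.2, with 26.1 and 10.3 FPKM of Ces1d. DSS_ICB 3 had 66.0 with 6.29 FPKM of Ces1d, and DSS_ICB_Fp 1 had 6.82 with 9.84. Of the 7 tested adipocyte markers 0 passed in any comparison. The share of all tested genes was 0.0209% from DSS to DSS_ICB, 0.132% from DSS_ICB to DSS_ICB_Fp and 0% from DSS to DSS_ICB_Fp. With shares this low, nothing is read from a list in which 0 passed. The part of the adipocyte markers in the level of Ces1d was not tested. Of the 10 hepatocyte markers Ttr alone passed the filter. Fga and Fgg were at 0 in all 15 libraries and Alb reached no more than 0.765 FPKM. Ttr, the carrier of thyroid hormone, ran from 14.0 to 33.0 FPKM in DSS, from 0.374 to 18.8 in DSS_ICB and from 28.6 to 52.4 in DSS_ICB_Fp mice. It differed by 2.52 ± 0.59 (log2, SE) between DSS_ICB_Fp and DSS_ICB (adjusted p = 0.0731, limma). Each DSS_ICB_Fp library was above each DSS_ICB library for Ttr, as for 0.945% of all tested genes. The part of Ttr in the levels of the members was not tested. The exocrine pancreas markers summed to no more than 0.336 FPKM. Of 12 small intestine markers, 5 were tested, Mep1a among them, and 0 passed, beside the same shares of all tested genes. At an unadjusted p under 0.05 (limma) there were 2 from DSS to DSS_ICB, against 11.3% of all tested genes. From DSS_ICB to DSS_ICB_Fp there were 3, against 21.7%. All 5 tested markers were below 0 from DSS to DSS_ICB and above 0 from DSS_ICB to DSS_ICB_Fp, with medians of -0.80 and 1.34. Without DSS_ICB 3 the medians were -0.49 and 1.01, with 5 of 5 below and 3 of 5 above 0. The 12 summed to 68.3 to 92.1 FPKM in DSS, 6.53 to 64.7 in DSS_ICB and 64.8 to 151.1 in DSS_ICB_Fp mice. Their part in the levels of the members was not tested.

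**Figure D3:**
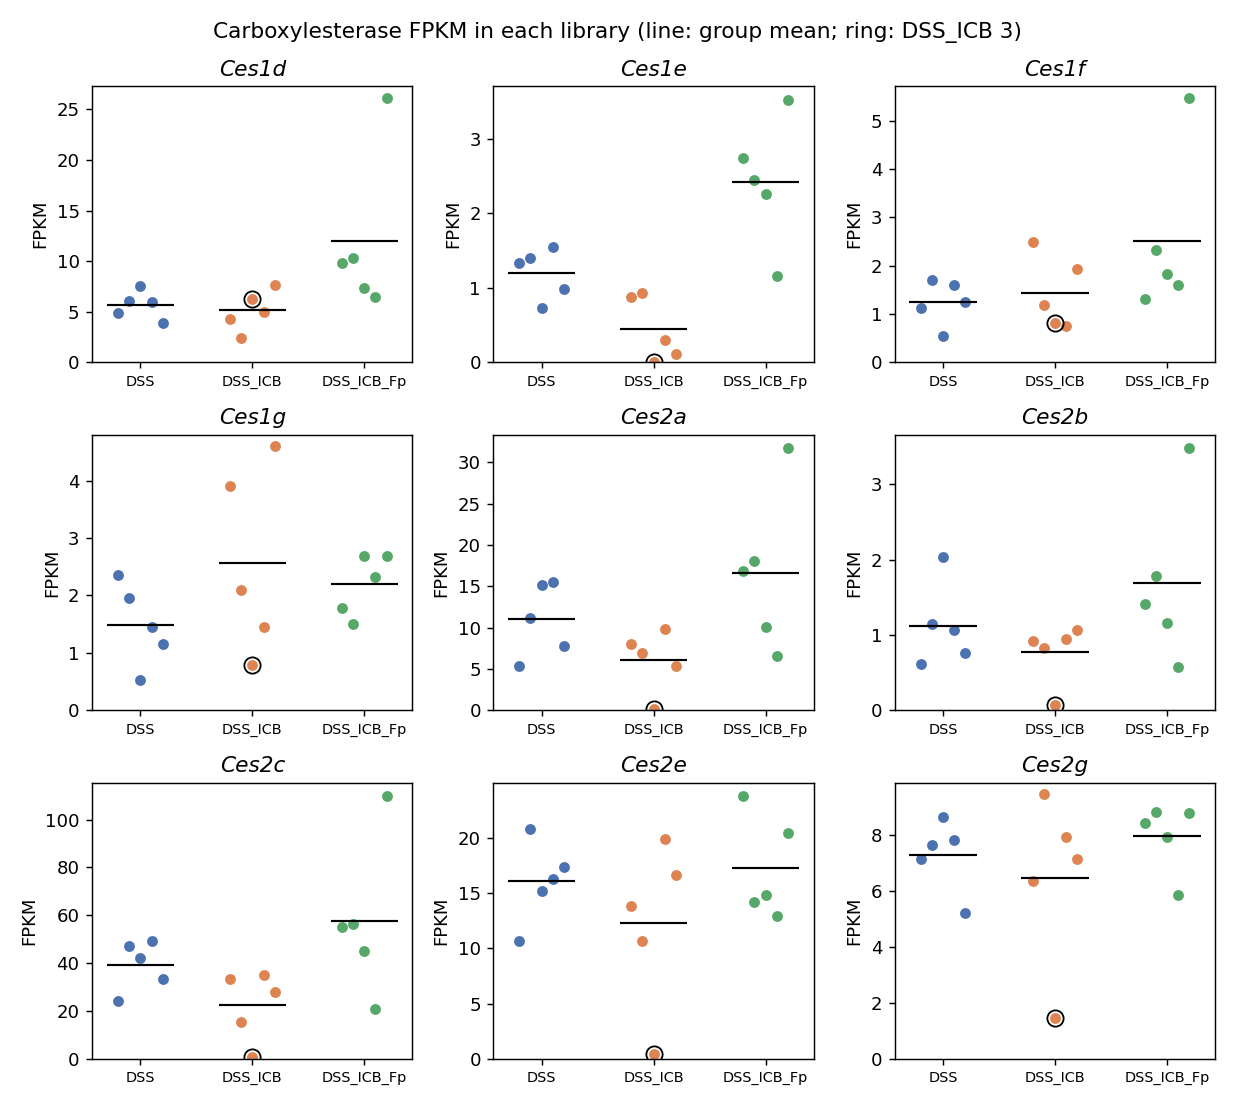
FPKM of 9 members in each library (1 point per mouse, horizontal line at the group mean, ring around DSS_ICB 3; each panel has its own axis from 0). Ces1e is the panel in which the 5 DSS_ICB_Fp points, from 1.16 to 3.53, lie above all 5 DSS_ICB points, from 0 to 0.927.

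Across the family, immune checkpoint blockade added to DSS gave lower means for most members without a call. Of the 9 tested members 7 were below 0 and 2, Ces1f and Ces1g, above 0, with a median change of -0.29 (log2) beside 0.02 for all tested genes. Without DSS_ICB 3 it was 6 below and 3 above, with a median of -0.09 beside 0.06 for all genes. None passed (0 of 9, limma), against 0.0209% of all tested genes. At an unadjusted p under 0.05 there was 1 member, Ces1e, and 11.3% of all tested genes, and no other tool was run. The members with all 5 DSS_ICB libraries below all 5 DSS libraries numbered 0, against 0.327% of all genes. Ces2c had the lowest change, -1.32, with an interval of 2 SE from -2.73 to 0.08. Without DSS_ICB 3 Ces1e was lowest, at -0.53, and Ces2c was at -0.50.

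With the gavage added to DSS and ICB, 8 of 9 members were above 0 and the median change was 0.86, beside -0.04 for all tested genes. Ces1e passed, 1 of 9 members, against 0.132% of all tested genes in either direction and 0.00695% higher, which is 1 gene, Ces1e itself. At an unadjusted p under 0.05 there were 4 members, Ces1e, Ces1d, Ces2a and Ces2c, and 21.7% of all tested genes. Ces1e was also the member whose groups did not overlap, against 0.945% of all genes with each DSS_ICB_Fp library above each DSS_ICB library. This comparison is the one in which Ces1e was first seen, so nothing is read from these counts. Without DSS_ICB 3 the members' median was 0.38, and the changes of Ces2a, Ces2c, Ces2e and Ces2g were 0.90, 0.90, 0.17 and 0.04.

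Between DSS_ICB_Fp and DSS mice all 9 members were above 0, with a median of 0.40 beside -0.01 for all tested genes. None passed (0 of 9, adjusted p = 0.9997 for each, limma), nor did any other gene, 0% of those tested. At an unadjusted p under 0.05 there were 2 members, Ces1e at 0.62 ± 0.22 and Ces1d at 0.82 ± 0.32 (log2, SE), and 1.41% of all tested genes. No member had all 5 DSS_ICB_Fp libraries above all 5 DSS libraries, against 0.195% of all genes. The changes nearest 0 were those of Ces2e at 0.09 ± 0.55 and Ces2g at 0.11 ± 0.30. Without DSS_ICB_Fp 5 the median of the members was 0.21, and Ces1d differed by 0.51 ± 0.25. The 3 comparisons share their mice in pairs, so a low DSS_ICB group alone sets opposite signs in the first and the second.

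**Figure D4:**
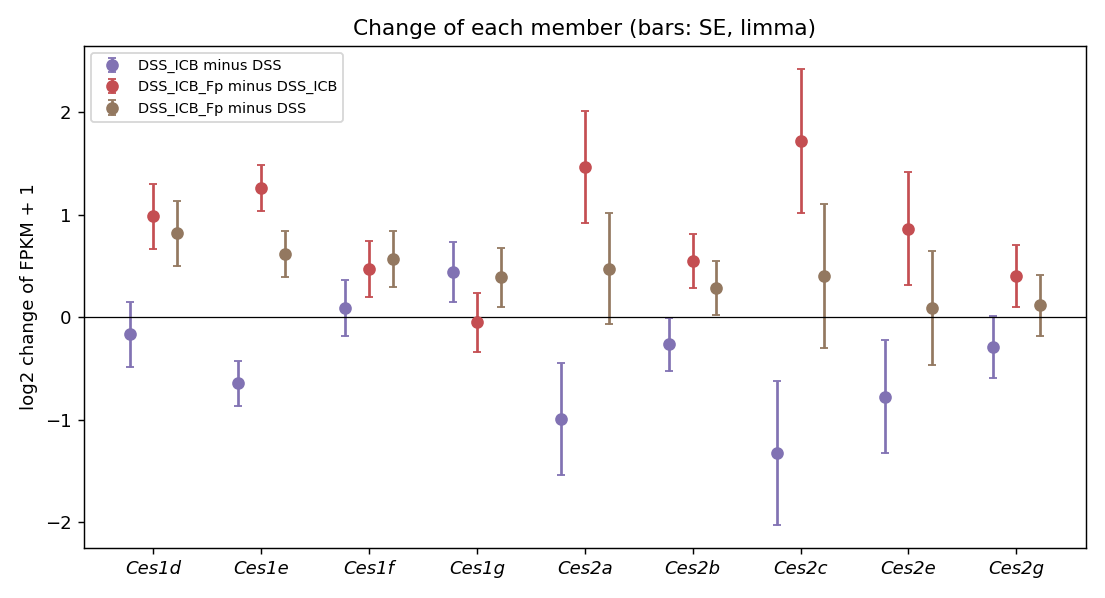
Change of each tested member in the 3 comparisons (vertical axis, difference of mean log2(FPKM + 1); points are limma estimates and bars 1 SE). The points for DSS_ICB_Fp minus DSS_ICB lie above 0 for all except Ces1g at -0.05, and Ces1e at 1.26 has a short bar while Ces2c at 1.72 has the longest.

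With all libraries in the fit, the pan-epithelial markers changed in the same direction as the Ces2 members in the first 2 comparisons. Outside DSS_ICB 3 the order of single libraries differed between them. DSS_ICB_Fp 4 had the highest epithelial geometric mean, 408.14 FPKM, with 46.8 FPKM of Ces2 members. DSS_ICB 2 had 376.49 with 43.1, and DSS_ICB_Fp 5 had 332.2 with 174.4. All 12 pan-epithelial markers were below 0 from DSS to DSS_ICB, with a median of -0.67, and above 0 from DSS_ICB to DSS_ICB_Fp, with a median of 0.76. Without DSS_ICB 3 the medians were -0.10, with 11 of 12 below 0, and 0.17, with 11 of 12 above 0. Neither comparison called any of them (0 of 12 each). At an unadjusted p under 0.05 there were 0 and 1, against 11.3% and 21.7% of all tested genes. Absorptive colonocyte markers had medians of -1.07 and 1.35, 11 of 11 below and 10 of 11 above 0. Of these 0 passed, and unadjusted there were 5 and 7, beside the same shares of all genes. Without DSS_ICB 3 these medians were -0.53 and 0.77. Slc26a3, the chloride exchanger of surface colonocytes, had 17.1 FPKM in DSS_ICB and 91.4 in DSS_ICB_Fp mice by mean (2.82 ± 0.74, adjusted p = 0.0862). Per 1000 FPKM of the epithelial geometric mean, Ces2c was 112.6 ± 31.6 in DSS, 74.3 ± 46.6 in DSS_ICB and 162.1 ± 103.1 in DSS_ICB_Fp mice, and 11.7 in DSS_ICB 3. On that scale Ces2g was 21.1 ± 4.72, 25.5 ± 4.79 and 22.02 ± 4.81, and DSS_ICB 3, at 30.1, was its highest library. In DSS_ICB 3 Ces1d was 129.2 on that scale, against 6.43 to 78.5 elsewhere. The part of epithelial content in the changes was not tested beyond this scaling. It shifted the median of all genes by 0.58 from DSS to DSS_ICB and by -0.63 from DSS_ICB to DSS_ICB_Fp. On it the changes from DSS_ICB to DSS_ICB_Fp were -0.01 for Ces1f and -0.19 for Ces2g, which crossed 0. Over the 26 alternative fits, this scaling among them, that change ran from 0.693 to 1.917 for Ces2a and from 0.896 to 2.031 for Ces2c. Of those fits 0 called either gene. Ces1d, Ces1e, Ces2b and Ces2e also stayed above 0 where tested, the lowest being 0.114 for Ces2b.

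**Figure D5:**
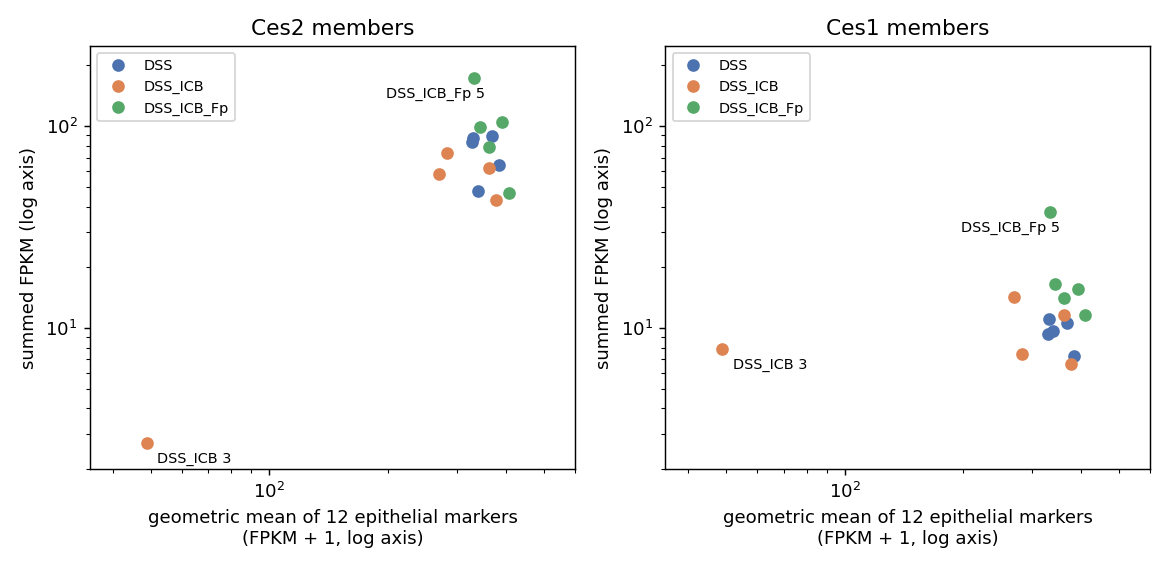
Summed FPKM of the 5 Ces2 members (left) and 4 Ces1 members (right) against the geometric mean of 12 pan-epithelial markers in each library (both axes log). DSS_ICB 3 lies at 48.7 on the horizontal axis with 2.70 FPKM of Ces2 and 7.90 of Ces1, whereas DSS_ICB_Fp 5 is highest in both panels at an epithelial value inside the range of the others.

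Neutrophil markers ran the other way. All 8 were below 0 from DSS_ICB to DSS_ICB_Fp and 4 passed, against 0.132% of all tested genes. Without DSS_ICB 3 it was 3 of 7 tested. Among the 4 was S100a8 (192.6 to 2.10 FPKM by mean, adjusted p = 0.0061, limma). The sum of the 8 markers was highest in DSS_ICB 3, 2098 FPKM, and next in DSS_ICB 5, 1349 FPKM, against 111.4 to 401.0 elsewhere. These are also the libraries with the lowest Ces1e, 0 and 0.106 FPKM. Their part in the level of Ces1e was not tested.

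Members differed in how they varied together. Over the 15 libraries r was 0.937 between Ces2c and Ces2e and 0.876 between Ces2e and Ces2g, but without DSS_ICB 3 these were 0.693 and 0.085 (n = 14). The pair of Ces2a and Ces2b kept 0.893 and 0.883. Ces1d and Ces2c had 0.427 over all libraries and 0.836 without DSS_ICB 3. Ces1g had r of 0.099 to 0.327 with the 5 Ces2 members, and of -0.358 to -0.139 without DSS_ICB 3, while with Ces1f it had 0.608 and 0.565.

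The genes most like each member over the 15 libraries (Pearson's r of log2(FPKM + 1), tested genes outside the family) were as follows, and each r rests on the same libraries. For Ces2c they were Mep1a, a brush border protease (0.977), and Slc15a1, a peptide transporter (0.973). For Ces2a the first was Iyd (0.972). For Ces2e they were Ms4a8a (0.982) and Ceacam20 (0.974). These stayed at 0.80 or above without DSS_ICB 3. For Ces2g they were Npc2 (0.941) and Ablim1 (0.936), which dropped to 0.577 and 0.501 without that library, and for Ces2b Cln3 (0.91) and Vldlr (0.893). Among Ces1 genes, Ces1e was most like Ninj2 (0.949) and Rnf32 (0.946), and Ces1d most like Oat (0.85) and Fmo2 (0.845). Ces1g was most like Frmd4b (0.836) and Gtf2h1 (0.798), and Ces1f, with Zfp952 (0.782) and Mir692-2 (0.779), had the weakest likeness of all. For the family's summed FPKM they were Adtrp (0.97) and the water channel Aqp8 (0.969), with 0.903 and 0.926 without DSS_ICB 3.

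The other carboxylesterase genes of the clusters were low or silent. Of 10 listed, Ces2d-ps alone passed the filter, and it differed by 0.62 ± 0.39 (log2, SE) between DSS_ICB_Fp and DSS_ICB (adjusted p = 0.365, limma). Ces1c, a plasma esterase, reached no more than 0.913 FPKM and Ces2f no more than 1.03. Ces4a was listed at 0 in all 15 libraries. Ces1b was low at 0.231 to 0.759 FPKM in DSS_ICB_Fp mice, and in DSS_ICB mice it was at 0 in 4 libraries and 0.0612 in the fifth. It was not tested with the filter. In the fit without a filter it differed by 0.44 ± 0.11 (adjusted p = 0.178).

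Enzymes and transporters that act with carboxylesterases on drugs all had changes above 0 with the gavage. Of 19 tested drug metabolism partners, 19 were above 0 from DSS_ICB to DSS_ICB_Fp, with a median of 0.97. Of these 0 passed, and 11 had an unadjusted p under 0.05, against 21.7% of all tested genes. Without DSS_ICB 3, 17 of 19 were above 0, with a median of 0.54. Sult1a1, a sulfotransferase, had 17.3 and 82.9 FPKM by mean (2.499 ± 0.55, adjusted p = 0.0712), and Ugt1a1, a glucuronosyltransferase, 2.10 and 10.9 (2.03 ± 0.47, adjusted p = 0.0716). From DSS to DSS_ICB 17 of 19 were below 0, with a median of -0.69 (0 passed, 7 unadjusted, against 11.3% of all tested genes). Other ester and lipid hydrolases moved less. Their median from DSS_ICB to DSS_ICB_Fp was 0.14, with 16 of 21 above 0 and 0 passing (4 unadjusted, against 21.7% of all tested genes). Without DSS_ICB 3 it was 0.05, with 12 of 21 above 0. Pnpla2, the adipose triglyceride lipase, had 19.2 and 27.1 FPKM by mean (0.50 ± 0.18, adjusted p = 0.146). Triacylglycerol handling genes of enterocytes had a median of -0.19, with 4 of 11 above 0 and 0 passing (4 unadjusted, against the same 21.7%). Apob, the protein of chylomicrons, had 0.822 and 2.36 FPKM (0.88 ± 0.24, adjusted p = 0.0873), while Gpat3, which makes glycerolipids, had 2.56 and 1.07 (-0.63 ± 0.27, adjusted p = 0.198).

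Nuclear receptors and transcription factors of gut and liver genes had a median of 0.37 from DSS_ICB to DSS_ICB_Fp. Of 23 tested, 20 were above 0 and 0 passed (11 unadjusted, against 21.7% of all tested genes). Without DSS_ICB 3 the median was 0.22, with 15 of 23 above 0. Hnf4g, a nuclear receptor of the gut epithelium, had 3.88 and 11.03 FPKM by mean (1.54 ± 0.47, adjusted p = 0.108). Cebpb, a factor of inflammatory responses, went the other way, with 34.8 and 9.13 FPKM (-1.55 ± 0.46, adjusted p = 0.103). From DSS to DSS_ICB, 17 of 23 were below 0 with a median of -0.39, and 0 passed (4 unadjusted, against 11.3% of all genes). Without DSS_ICB 3 that median was 0.01, with 11 of 23 below 0. These lists were put together with earlier results of the series known, and each shares its libraries with the carboxylesterases.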

How the data were processed

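Total RNA of colon tissue from 15 mice was sequenced. The deposited values are FPKM per Ensembl gene, 1 file per mouse, made by the authors. The submitters' processing notes name FastQC, STAR 2.5, Cuffnorm and DESeq, with build mm10, without roles. The annotation release, the scaling between libraries, and the depth are not given in the sources used here. Of 55335 gene IDs, 55154 matched GENCODE M21, which gave symbols and coordinates.

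Groups came from the treatment labels. Whether mice shared cages or were processed together is not labelled, so treatment cannot be told apart from cage or batch. The p-values set a difference between groups against the spread between these samples. The members and gene lists were chosen with earlier results of these data known. Genes with at least 1 FPKM in at least 5 libraries, 14385 in all, were fitted as log2(FPKM + 1) in limma 3.58.1 (R 4.3.3), with a mean per group over all 15 libraries and a trended, robust variance. All tests were two-sided, with Benjamini-Hochberg adjustment over all tested genes. The log2 scale with a pseudocount of 1 understates the change of low genes. The script was tested on simulated data. Replicate numbers follow the order of deposit and pair no mice.

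Genes were named by rule: every member and other carboxylesterase, from each other list up to 3 called genes per direction or the 2 of smallest p, and the 2 genes outside the family most like each member. In each named list a selection is printed. Of the genes most like the members, 1 is not reported here. There were 26 alternative fits of scaling, pseudocount, filter, weights, groups and left-out libraries. Likeness without DSS_ICB 3, and list counts and medians without DSS_ICB 3 or without DSS_ICB_Fp 5, were added after seeing the data. Shared 50-base stretches and coding identity come from GENCODE transcripts, and promoters from RefSeq (GRCm38.p6), which held 6 of 10 members.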

Additional observations from a re-analysis of the deposited data

Results flagged for a closer look

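In 32 sets of 5 libraries, 1 for each group of each member and of the members' sum that was not at 0 throughout, 5 held a library set apart from the other 4, meaning that its gap to the nearest of them divided by the whole range was above 0.71. That cut-off sets a library apart in about 1 of 20 sets of independent values with a normal spread. The sets here share their libraries and hold FPKM, so this rate does not apply and nothing is read from the count. DSS_ICB_Fp 5 was set apart for Ces1d at 26.09 FPKM and for Ces1f at 5.468 FPKM. DSS_ICB 3 was set apart for Ces2b, low at 0.07388 FPKM. For Ces3a, DSS_ICB 2 had 0.04386 FPKM and DSS_ICB_Fp 1 had 0.0882 FPKM, with the other 4 libraries of each group at 0. A set with only 1 library above 0 meets this rule whatever its value. What sets these libraries apart was not tested.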

How the results depend on the processing

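From DSS to DSS_ICB, 3 genes passed. With median-of-ratios scaling, upper-quartile scaling, a pseudocount of 10, no filter, a filter at 5 FPKM, only the 2 groups compared, or DSS_ICB 3 and 5 left out together, 1 gene passed. Scaled to the epithelial markers or with a pseudocount of 0.1, 0 passed. Leaving out 1 library at a time gave 0 to 7, with 7 without DSS_ICB 4 and 0 without DSS 2, 3 or 4. No member passed in any of these fits. From DSS_ICB to DSS_ICB_Fp, 19 genes passed, 4 scaled to the epithelial markers, 42 with a pseudocount of 0.1, 5 with 10, 7 without a filter, 11 with the filter at 5 FPKM, 964 with array quality weights and 0 with only the 2 groups. Leaving out 1 library gave 5 to 587: more without DSS_ICB 1 (587), DSS_ICB 2 (133), DSS_ICB 4 (74) or DSS_ICB_Fp 4 (456), and fewer without DSS 2 (11), DSS_ICB 3 (9), DSS_ICB 5 (8) or DSS_ICB_Fp 1, 2, 3 or 5 (6, 5, 5 and 5). Of the members, 2 passed with array quality weights and 0 under the other settings just named or without DSS_ICB 3 and 5, where the filter at 5 FPKM left Ces1e untested. Without 1 library it was 0 to 1. From DSS to DSS_ICB_Fp, 0 genes passed in every fit.

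Changes of single members that crossed 0 were all uncalled. Scaled to the epithelial markers, Ces1d and Ces2g from DSS to DSS_ICB were 0.456 and 0.244, and Ces1f and Ces2g from DSS_ICB to DSS_ICB_Fp were -0.006 and -0.191. From DSS to DSS_ICB, Ces2g was 0.08 with array quality weights and 0.105 without DSS_ICB 3 and 5. With 1 library left out at a time, from DSS to DSS_ICB, Ces1d ran from -0.309 to 0.026, Ces1f from -0.054 to 0.195 and Ces2g from -0.446 to 0.075. From DSS_ICB to DSS_ICB_Fp, Ces1g ran from -0.266 to 0.144, and from DSS to DSS_ICB_Fp, Ces2e ran from -0.04 to 0.186. The cause was not tested. No paired analysis was possible because the labels carry no replicate numbers. Without read counts, the depth behind low values such as those of Ces1e is unknown.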
